A study of Mus musculus with 10 samples.

Results

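The mitochondrially encoded genes are the genes carried by the mouse mitochondrial DNA itself. They were taken as every row of the deposited gene table whose name starts with mt-, which gave 37 of 55417 named genes: 13 protein-coding genes, 2 rRNAs and 22 tRNAs. They were described in 10 RNA-seq libraries of cultured mouse mammary carcinoma lines. The parental line, 4T1-hHER2, was 1 library; it is labelled with the strain BALB/cfC3H and stably expresses human HER2 and luciferase from a lentivirus. The other 9 lines carry the strain label NOD-SCID-GAMMA, an immunodeficient mouse. Their labels name as the common origin of all 9 circulating tumor cells (CTCs) from such mice, which had received the parental cells orthotopically. The 3 primary lines (5, 7 and 8) were grown out of fat pad xenografts, the 3 CTC lines (1, 3 and 6) out of circulating tumor cells, and the 3 metastasis lines (5, 3 and 7) out of lung metastases. No ages and no passage numbers are used here. Each line is 1 library, so the spread given below is between lines, and the labels do not say whether lines that share a number share an animal.

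Mitochondrial DNA is a small circle that is transcribed from both strands into long precursors. The tRNAs punctuate these precursors and are cut out by dedicated RNases, which releases the mRNAs and rRNAs between them. The mRNAs code for membrane subunits of respiratory complexes I, III and IV and of the ATP synthase, the rRNAs form the mitochondrial ribosome, and the tRNAs serve translation inside the organelle. All other proteins of these machines are encoded in the nucleus. In the GENCODE M21 annotation of GRCm38, 28 of the members lie on the plus strand and 9 on the minus strand, the latter being mt-Nd6 and 8 tRNAs. Members therefore share precursors and are not independent measurements of one another.

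The tRNAs shown here are the 6 minus-strand tRNAs with at least 10 counts in every library. In each of them all 3 metastasis lines lay above the other 7 libraries, which was known when they were chosen and is no separate result. The pattern held for 8 of the 10 tRNAs with that many counts, the plus-strand mt-Tl1 and mt-Tr included, and for 1.48% of all genes. The sequences run 5′ to 3′ as in the GENCODE transcripts, with the anticodon in capitals.
mt-Ta (alanine, chrM:5018-5086): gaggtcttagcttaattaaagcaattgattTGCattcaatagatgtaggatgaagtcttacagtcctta
mt-Tn (asparagine, chrM:5089-5159): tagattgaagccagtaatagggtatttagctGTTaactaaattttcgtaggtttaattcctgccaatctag
mt-Tc (cysteine, chrM:5192-5257): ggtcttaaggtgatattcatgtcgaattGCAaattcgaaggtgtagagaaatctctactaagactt
mt-Ty (tyrosine, chrM:5260-5326): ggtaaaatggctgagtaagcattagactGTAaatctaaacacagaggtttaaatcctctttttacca
mt-Te (glutamate, chrM:14071-14139): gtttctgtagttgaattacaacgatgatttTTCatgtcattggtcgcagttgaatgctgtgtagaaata
mt-Tp (proline, chrM:15356-15422): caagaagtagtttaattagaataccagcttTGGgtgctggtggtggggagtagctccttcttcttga

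The first 4 of these tRNA genes are neighbours that lie between mt-Nd2 and mt-Co1, both on the plus strand, with the plus-strand tRNA mt-Tw between mt-Nd2 and the first of them. The sources used here do not say whether the counting used strand, so reads of these tRNAs and reads of a plus-strand precursor across the same bases cannot be told apart. The tRNA counts come from a library of RNA fragments and include any unprocessed precursor that covers the tRNA.

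2 pairs of protein-coding members overlap on the same strand, and the bases they share are shown because the counts of such partners depend on how reads were divided. Capitals mark the shared bases, 43 in the first pair and 7 in the second.
mt-Atp8 into mt-Atp6 (chrM:7915-7981): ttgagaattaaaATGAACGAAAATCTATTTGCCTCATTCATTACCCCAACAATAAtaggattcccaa
mt-Nd4l into mt-Nd4 (chrM:10155-10185): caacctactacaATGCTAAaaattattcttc

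The members also share sequence with nuclear pseudogenes that were copied from mitochondrial DNA. A search of the GENCODE transcripts found 11 annotated copies with at least 100 aligned bases at 95% identity or more. Among them, 7 lie side by side on the minus strand of chr1:24611535-24616197, a block of 4663 bases, and their lowest identity to the mitochondrial gene is 99.71%. The copies of mt-Co2 (Gm28661), mt-Atp6 (Gm10925), mt-Co3 (Gm28437), mt-Nd4l (Gm10222) and mt-Nd4 (Gm28439) match without a difference over the aligned bases. The copy of mt-Nd3 (Gm28438) carries T3C and the copy of the last part of mt-Co1 (Gm29216) carries A1066T, with positions counted from 1 at the first base of the mitochondrial transcript. The windows below, at chrM:9459-9481 and chrM:6390-6413, show these single differences in capitals.
mt-Nd3: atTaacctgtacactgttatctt
Gm28438: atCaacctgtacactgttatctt
mt-Co1: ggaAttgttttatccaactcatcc
Gm29216: ggaTttgttttatccaactcatcc

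Counts of the chromosome 1 copies stood in different ratios to those of the members they match, and were close to them for mt-Co2, mt-Nd3 and mt-Co3. Gm28661 had 1.04 to 1.05 counts for each count of mt-Co2 in the 10 libraries, Gm28438 had 1.05 to 1.09 for each of mt-Nd3, and Gm28437 had 1.09 to 1.17 for each of mt-Co3. Gm10925 had 8.76 to 21.6 counts for each count of mt-Atp6, but 0.80 to 0.84 for each count of mt-Atp8 and mt-Atp6 together. Gm29216, which matches only the last part of mt-Co1, had 0.134 to 0.151 counts for each count of mt-Co1. Gm28439 had 1.99 to 3.06 counts for each count of mt-Nd4, while Gm10222 held only 1 to 110 counts although it is identical to mt-Nd4l over the aligned bases. Both of these copies together had 0.486 to 0.520 counts for each count of mt-Nd4l and mt-Nd4 together. On chromosome 2, Gm13340, which covers all of mt-Co1 at 97.605% identity, held 519 to 1910 counts beside 232424 to 707926 of mt-Co1. All 11 copies together held 29.8 to 35.4 counts per 100 mitochondrial counts in every library. From which of the loci these reads came cannot be told apart in the tables, and the members' counts given here leave the copies out.

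**Figure D1:**
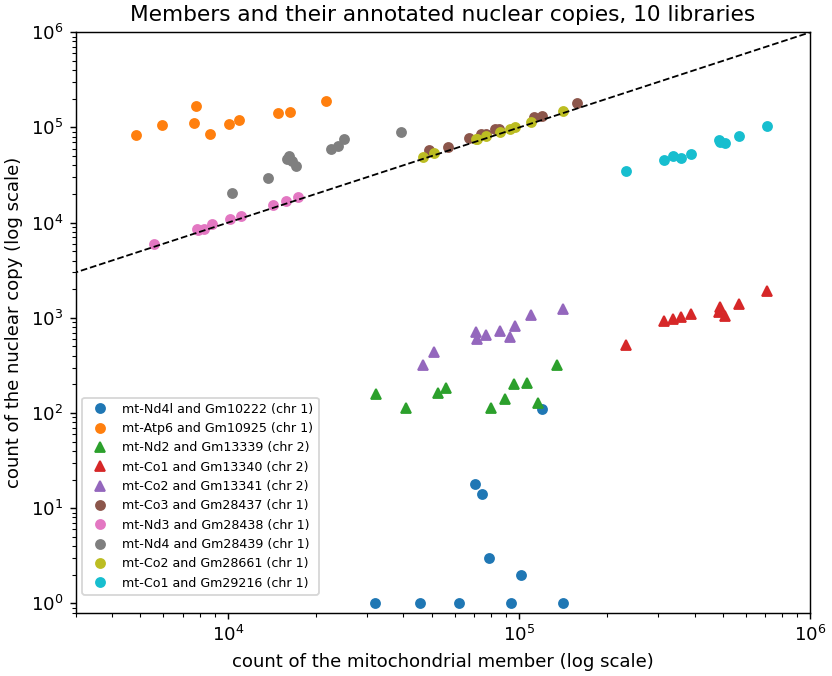
Counts of mitochondrial members (x axis, log scale) against counts of their annotated nuclear copies (y axis, log scale), 1 point per library, circles for chromosome 1 and triangles for chromosome 2. The dashed line marks equal counts: the copies of mt-Co2, mt-Co3 and mt-Nd3 lie at 1.04 to 1.17 counts per member count, while the chromosome 2 copies and Gm10222, the copy of mt-Nd4l, lie far below, and the copy of mt-Nd5 on chromosome 13 (2 to 20 counts) is left out.

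Levels per length ran over a wide range. Levels as CPM (a count relative to the library's named-gene total, scaled between libraries by TMM, a trimmed mean of ratios) were divided by the length in kilobases, taking the overlapping partners together. The order over the 10 libraries was mt-Co1, the catalytic subunit of complex IV, at 3905 ± 1107 CPM per kb (mean ± SD), then mt-Atp8 with mt-Atp6 at 2527 ± 624 and mt-Cytb of complex III at 2092 ± 735. Each of these was above the next in 10 of 10 libraries. These levels leave the nuclear copies out, whose counts differ between members. Per count of the member, the chromosome 1 copies had 0.134 to 0.151 counts for mt-Co1 and 0.80 to 0.84 for mt-Atp8 with mt-Atp6. They had 1.04 to 1.05 for mt-Co2 and 1.09 to 1.17 for mt-Co3, and the search found no copy of mt-Cytb or mt-Nd1. The order with the copies counted in was not worked out. mt-Co2 at 1695 ± 501, mt-Nd1 at 1582 ± 622 and mt-Co3 at 1548 ± 524 CPM per kb traded places, with each above the next in 5 of 10 libraries for the first pair and in 5 of 10 for the second. mt-Nd2 stood at 1060 ± 415, mt-Nd4l with mt-Nd4 at 838 ± 307 and mt-Nd5 at 798 ± 317 CPM per kb, and the last of these steps also held in only 5 of 10 libraries. mt-Nd3 followed at 423 ± 139. Both rRNAs, which exceed the mRNAs in living cells, lay lower still at 276 ± 93.6 CPM per kb for the 16S rRNA mt-Rnr2 and 250 ± 93.2 for the 12S rRNA mt-Rnr1. The labels give the molecule as poly(A) RNA and the kit as one for total RNA, so which RNA selection was used is not settled by the sources used here. mt-Nd6, a complex I subunit and the only mRNA of the minus strand, was lowest at 1.30 ± 1.37 CPM per kb.

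The summed share of the members was larger in each metastasis line than in any primary line. Of all named-gene counts they took 1.63%, 1.67% and 1.14% in primary lines 5, 7 and 8, and 2.22%, 2.01% and 1.07% in CTC lines 1, 3 and 6. It was 3.14%, 2.34% and 2.51% in metastasis lines 5, 3 and 7, and 1.72% in the parental line. In this share the metastasis lines lay above the other 7 libraries, and the CTC lines spanned the primary lines from below to above. Group means were 1.48% ± 0.298 for primary, 1.77% ± 0.615 for CTC and 2.66% ± 0.423 for metastasis (SD, n = 3 lines each). In summed CPM the metastasis mean was 1.74 times the primary mean and 1.43 times the CTC mean. On that scale the metastasis and CTC lines overlapped, with CTC 1 at 22979 CPM above metastasis 3 at 22321. A share over chosen members gets no test here. Counting the nuclear copies with the members kept the order of the group means, at 1.95%, 2.33% and 3.48%.

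**Figure D2:**
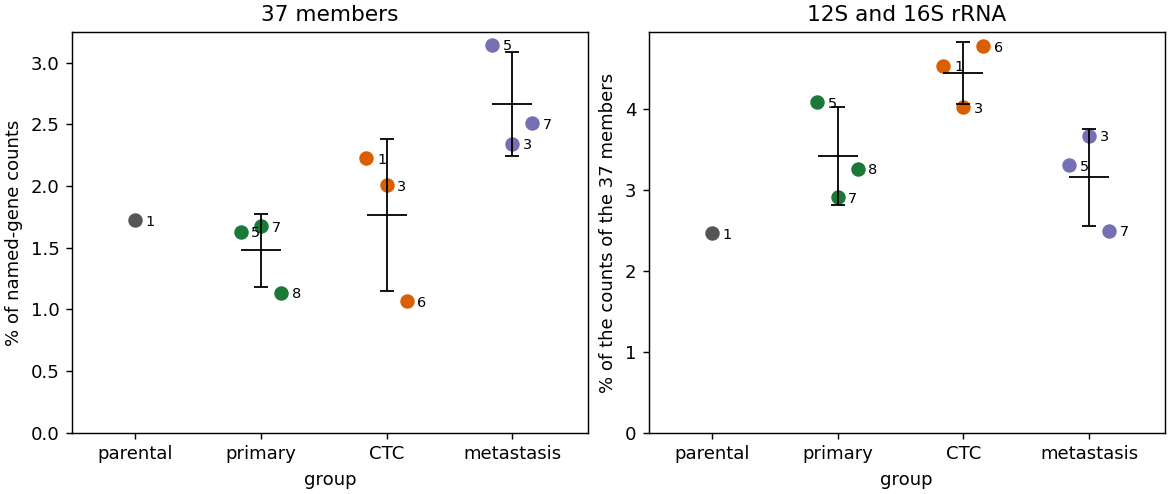
Left, share of named-gene counts taken by the 37 members, in %; right, share of the members' counts taken by the 12S and 16S rRNA, in %, for each line (points, numbered as in the labels) with the group mean and SD (bars, n = 3). The metastasis lines (2.34% to 3.14%) lie above the other libraries on the left, and the CTC lines have the highest group mean on the right (4.44%).

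Within the members, the proportions of some mRNAs varied more than those of others. mt-Co1 alone took 28.4% to 38% of the mitochondrial counts, and mt-Co1, mt-Cytb and mt-Atp8 together took 51.2% to 60.2%. The parental line held the upper end of both ranges. mt-Nd1 with mt-Nd2 took 9.82% of mitochondrial counts in the parental line and 17.7% in primary 7, the ends of their range. mt-Atp6 had 4.52 counts per 1000 mitochondrial counts in CTC 1 and 9.85 in primary 8. The tRNAs took 0.363% to 0.762% of mitochondrial counts.

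For the metastasis lines against the primary lines, all 13 protein-coding members and both rRNAs had higher means in the metastasis lines, but none passed the test over all genes. The median log2 change over these 15 members was 0.83, beside 0.01 over all 19935 genes tested, of which 50.3% were above 0. In edgeR's quasi-likelihood test 0 members were called at an adjusted p under 0.05 (range 0.594 to 0.866 over the 32 members that passed the filter on low counts), where 0% of all genes were called. At an unadjusted p under 0.05 there were 12 of the 15, all higher in the metastasis lines, against 8.29% of all genes in either direction and 3.37% in this one. limma-voom called 0 members and 0% of all genes. DESeq2, which gave an adjusted p for 29 of the 32, called 6 members, mt-Tp, mt-Tc, mt-Ta, mt-Tn, mt-Ty and mt-Nd6. It called 1.02% of the genes with an adjusted p, the base of each DESeq2 percentage given here. In 13 of the 15 every metastasis line was above every primary line, which held for 6.38% of all genes; the exceptions were mt-Nd2 and mt-Rnr1.

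**Figure D3:**
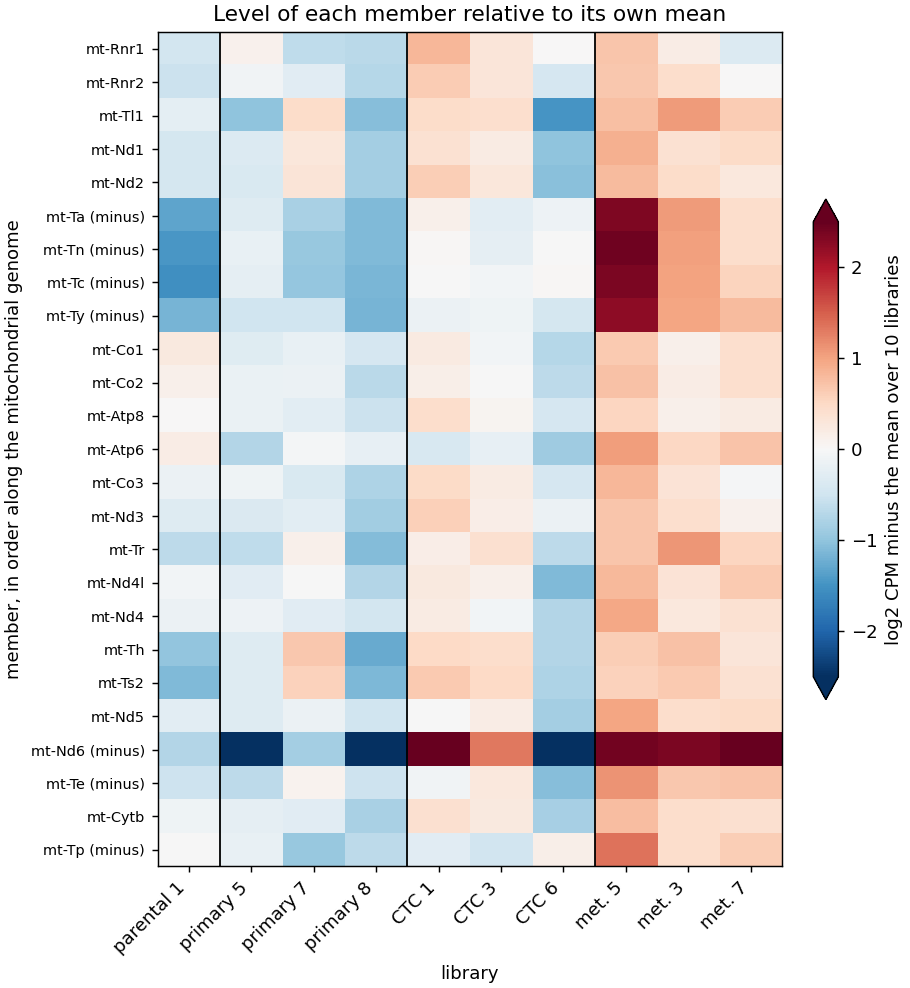
Level of the 15 mRNA and rRNA members and of the 10 tRNAs with at least 10 counts in every library (rows, in order along the mitochondrial genome) in each library (columns, groups divided by black lines), as log2 CPM minus the member's mean over the 10 libraries. Metastasis 5 is the highest library for 12 of 13 protein-coding members, CTC 6 the lowest for 9, and mt-Ta, mt-Tn, mt-Tc and mt-Ty have like values in each library.

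Among the 7 complex I subunits, which form its proton-pumping membrane arm, the median log2 change was 0.90. mt-Nd5 measured 1092, 1226 and 964 CPM in primary lines 5, 7 and 8, 1356, 1554 and 753 in CTC lines 1, 3 and 6, 2718, 1854 and 1913 in metastasis lines 5, 3 and 7, and 1130.2 in the parental line. All 3 metastasis lines were above the other 7 libraries. Its log2 change was 0.98 ± 0.30 (SE, edgeR adjusted p = 0.594). mt-Nd4 measured 238, 213 and 189 CPM in the primary lines, 301, 247 and 158 in the CTC lines, 512, 313 and 341 in the metastasis lines and 236 in the parental line. Here too the metastasis lines did not overlap with any other library, but metastasis 3 and CTC 1 lay close together. Its partner mt-Nd4l, on the same RNA, gave a log2 change of 0.92 ± 0.36 and mt-Nd4 gave 0.86 ± 0.30 (SE, edgeR adjusted p = 0.594 for both). mt-Nd4l had 3.09 to 4.88 counts for each count of mt-Nd4 although the latter is longer, so neither level can be read apart from how their reads were divided. mt-Nd3 measured 109, 116 and 76.6 CPM in the primary lines and 226, 187 and 151 in the metastasis lines, a log2 change of 0.90 ± 0.29 (SE, edgeR adjusted p = 0.594). Its CTC lines, at 211, 158 and 126 CPM, were also all above the primary lines. mt-Nd1 (log2 change 0.83 ± 0.40) and mt-Nd2 (0.75 ± 0.44) had the largest SEs of the protein-coding members after mt-Nd6: primary 7 had 1704 CPM of mt-Nd1 and primary 8 had 783.

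mt-Cytb, the only mitochondrially encoded subunit of complex III, measured 1925, 1860.4 and 1278 CPM in primary lines 5, 7 and 8, and 2987, 2678 and 1263 in CTC lines 1, 3 and 6. It measured 3820.5, 3059 and 2971 CPM in metastasis lines 5, 3 and 7, and 2094 in the parental line. Metastasis lines were above all primary lines and overlapped with the CTC lines through CTC 1. The log2 change against primary was 0.96 ± 0.33 (SE, edgeR adjusted p = 0.594).

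In complex IV, whose subunits 1 to 3 are mitochondrially encoded, mt-Co1 measured 4720.3, 5123 and 4334 CPM in the primary lines and 6800.4, 5573 and 3544 in the CTC lines. It measured 9211, 6382 and 7758 CPM in the metastasis lines and 6878 in the parental line. The parental line and CTC 1 were both above metastasis 3. The log2 change of the metastasis against the primary lines was 0.72 ± 0.26 for mt-Co1, 0.77 ± 0.28 for mt-Co2 and 0.82 ± 0.32 for mt-Co3 (SE, edgeR adjusted p = 0.594 for each).

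mt-Atp6 and mt-Atp8, the membrane subunits of the ATP synthase that share 1 RNA, gave different values. mt-Atp6 (ENSMUSG00000064357.1, chrM:7927-8607) measured 82.5, 133 and 119 CPM in primary lines 5, 7 and 8, 104, 118 and 73.6 in CTC lines 1, 3 and 6, 283, 195 and 223 in metastasis lines 5, 3 and 7, and 155 in the parental line. The metastasis lines were above every other library, and the log2 change was 1.07 ± 0.29 (SE, edgeR adjusted p = 0.594). mt-Atp8 measured 1713, 1615 and 1322 CPM in the primary lines, 2616, 2010.1 and 1448 in the CTC lines, 2797, 2092 and 2233 in the metastasis lines and 1942 in the parental line. Its metastasis lines overlapped with the CTC lines, and its log2 change against primary was 0.61 ± 0.25 (SE, edgeR adjusted p = 0.594). The count ratio of mt-Atp8 to mt-Atp6 was 11.1 to 20.8 in the primary, 17.0 to 25.2 in the CTC and 9.87 to 10.7 in the metastasis lines. Counted as 1 RNA, both members had 1.57 times the primary mean in the metastasis lines and 1.23 times the CTC mean. Reads of the shared 43 bases and of Gm10925 enter this ratio, and their part in it was not tested.

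**Figure D4:**
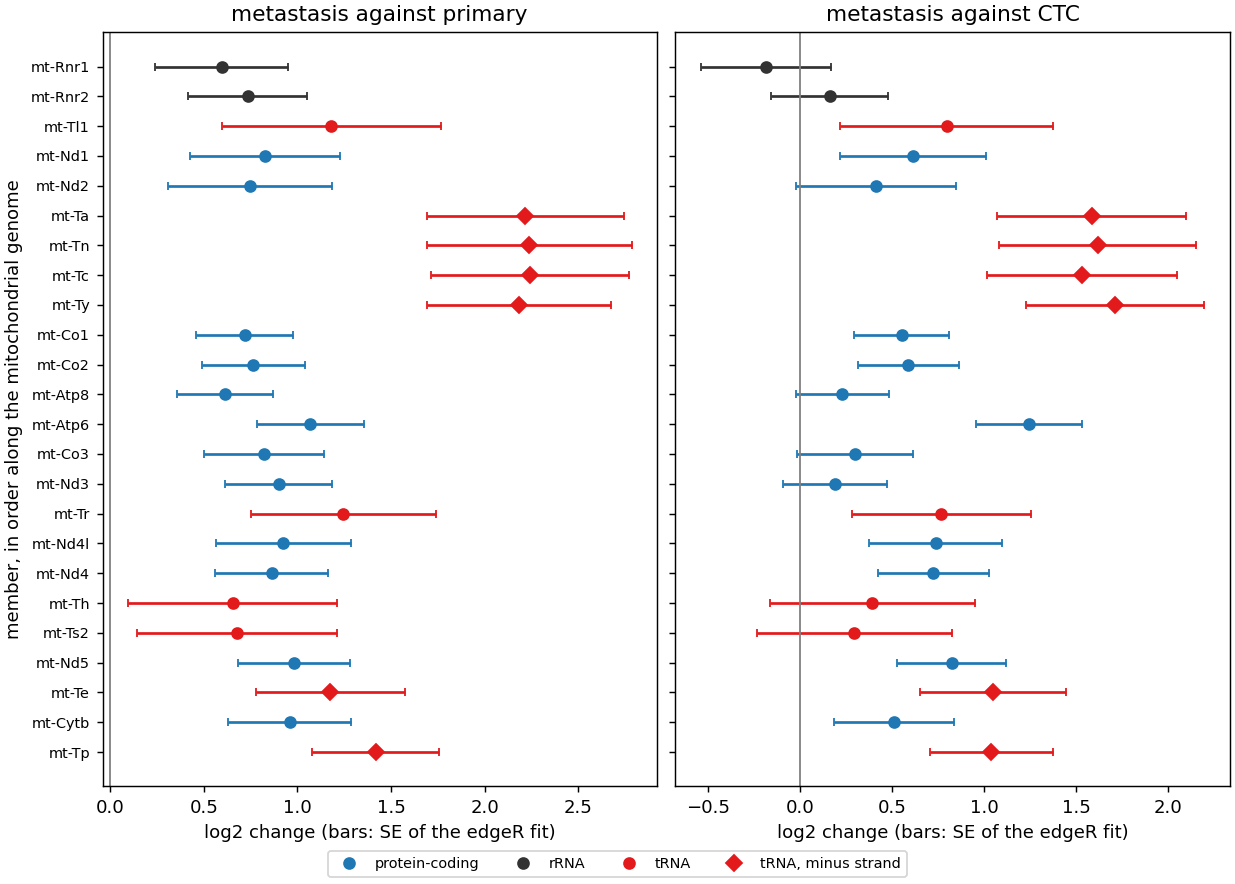
Log2 change (points) with SE (bars) from the edgeR fit for 24 members in order along the mitochondrial genome, metastasis against primary on the left and metastasis against CTC on the right, coloured by kind, with diamonds for minus-strand tRNAs. All 24 lie above 0 on the left, mt-Rnr1 lies at -0.19 on the right, and mt-Ta, mt-Tn, mt-Tc and mt-Ty lie farthest from 0 in both; mt-Nd6, with 1 or 2 counts in 3 libraries, is left out.

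The 12S rRNA mt-Rnr1 had its highest group mean in the CTC lines, while the 16S rRNA mt-Rnr2 and the summed mRNAs had theirs in the metastasis lines. mt-Rnr1 measured 240.3, 144 and 140.4 CPM in primary lines 5, 7 and 8, 399.8, 278 and 225 in CTC lines 1, 3 and 6, 361, 256 and 177 in metastasis lines 5, 3 and 7, and 162 in the parental line. CTC 1 was the highest library and the metastasis lines overlapped with both other derived groups. mt-Rnr2 measured 388, 342 and 253 CPM in the primary lines, 642, 511 and 312 in the CTC lines, 659, 562 and 415 in the metastasis lines and 284 in the parental line. The log2 change of metastasis against primary was 0.60 ± 0.36 for mt-Rnr1 (SE, edgeR adjusted p = 0.626) and 0.73 ± 0.32 for mt-Rnr2 (adjusted p = 0.594). Against the CTC lines it was -0.19 ± 0.35 for mt-Rnr1, where leaving out CTC 1 gave 0.07 and leaving out metastasis 7 gave 0.04, and 0.16 ± 0.32 for mt-Rnr2, where leaving out CTC 6 gave -0.08. The sign of either rRNA against CTC thus rested on 1 line. As a share of mitochondrial counts both rRNAs took 3.42% ± 0.604 in the primary, 4.44% ± 0.386 in the CTC and 3.15% ± 0.601 in the metastasis lines (SD, n = 3). The lowest CTC line, at 4.02%, lay below primary 5 at 4.08%, and above all 3 metastasis lines, which reached 3.66%. The 16S to 12S count ratio ranged from 1.39 in CTC 6 to 2.38 in primary 7.

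Apart from mt-Nd6, the 4 neighbouring tRNAs of the minus strand had the largest log2 changes of the members with enough counts in every library. mt-Ta, mt-Tn, mt-Tc and mt-Ty summed to 10.5, 6.92 and 5.79 CPM in primary lines 5, 7 and 8, and to 12.8, 11.2 and 12 in CTC lines 1, 3 and 6. They summed to 65.0, 25.7 and 18 CPM in metastasis lines 5, 3 and 7 and to 4.76 in the parental line. The parental line was lowest, the CTC lines were all above the primary lines, and the metastasis lines were above every other library. The metastasis mean was 4.69 times the primary mean and 3.02 times the CTC mean, and without metastasis 5 these ratios were 2.83 and 1.82. As counts per 1000 mitochondrial counts, the 4 tRNAs had 0.413 to 0.679 in the primary, 0.556 to 1.07 in the CTC and 0.757 to 2.1 in the metastasis lines, so that CTC 6 was above metastasis 7.

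In each of the 4 by itself the metastasis lines were above every other library, as for 1.48% of all genes. For 3 of the 4, not mt-Tn, the CTC lines were all above the primary lines, where 3.13% of all genes showed this. The 4 neighbours had like values in each library, so they are not 4 separate results. mt-Tc (ENSMUSG00000064349.1) measured 2.91, 1.75 and 1.55 CPM in the primary lines, 3.40, 3.28 and 3.49 in the CTC lines, 17.5, 6.89 and 5.02 in the metastasis lines and 1.19 in the parental line. Its log2 change of metastasis against primary was 2.24 ± 0.53 (SE, edgeR adjusted p = 0.594). mt-Tn, the highest of the 4, measured 4.07, 2.42 and 2.16 CPM in the primary lines, 4.72, 4.00 and 4.59 in the CTC lines and 25.1, 9.45 and 6.33 in the metastasis lines, a log2 change of 2.24 ± 0.55 against primary. Metastasis 5 was more than the sum of the other 2 metastasis lines. mt-Ta had a log2 change of 2.22 ± 0.53 and mt-Ty of 2.18 ± 0.49 against primary (SE, edgeR adjusted p = 0.594 for both). Counts behind these values ran from 43 for mt-Ty in the parental line to 1926 for mt-Tn in metastasis 5.

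The remaining minus-strand tRNAs lie elsewhere on the circle. mt-Tp, next to the non-coding control region, measured 41.0, 24.2 and 29.7 CPM in the primary lines, 38.4, 33.6 and 51.4 in the CTC lines, 119, 63.3 and 71.0 in the metastasis lines and 46.4 in the parental line. mt-Te, beside mt-Nd6, measured 7.40, 12.4 and 8.12 CPM in the primary lines, 11.0, 14 and 5.60 in the CTC lines, 25.4, 18.6 and 19.2 in the metastasis lines and 8.20 in the parental line. In both the metastasis lines were above every other library, as for 1.48% of all genes. The log2 change of metastasis against primary was 1.42 ± 0.34 for mt-Tp and 1.18 ± 0.40 for mt-Te (SE, edgeR adjusted p = 0.594 for both). Of the other 2 minus-strand tRNAs, mt-Tq reached at most 1 count and mt-Ts1 had 1 count in each library.

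**Figure D5:**
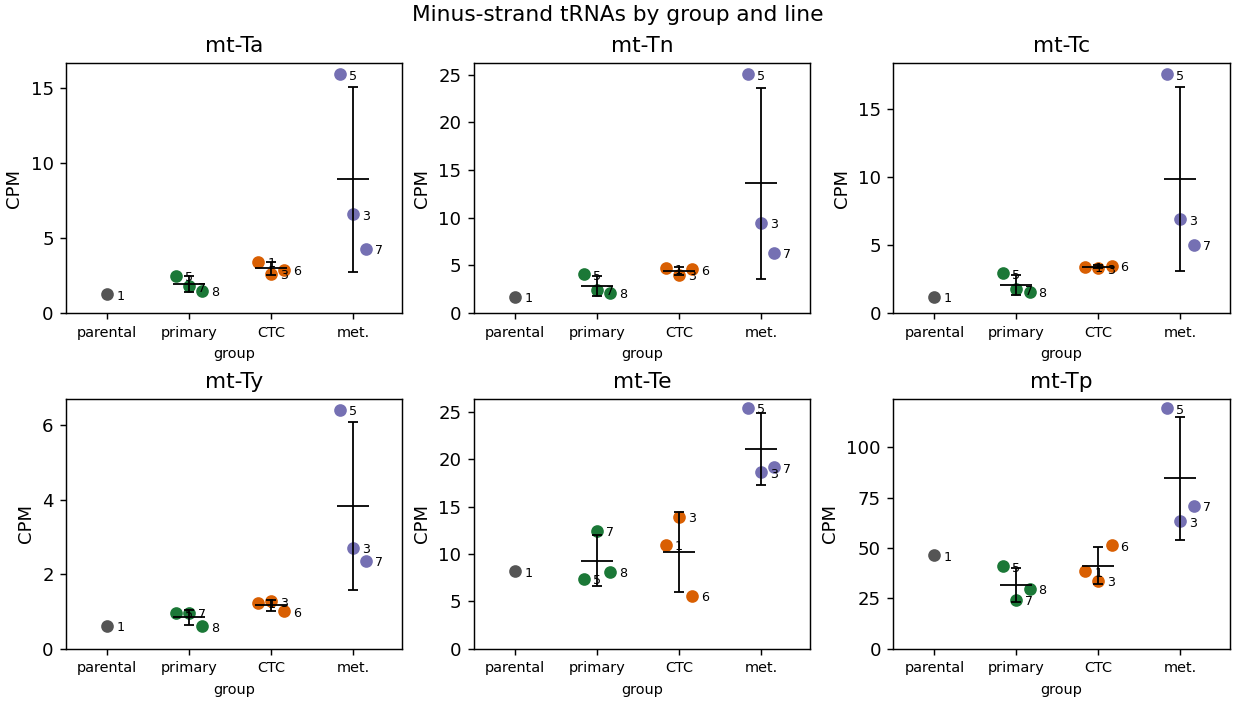
Level in CPM (y axis) of the 6 minus-strand tRNAs with at least 10 counts in every library, by group (x axis), with the line number beside each point and the group mean and SD as bars (n = 3 lines; parental 1 library). In all 6 panels the 3 metastasis lines lie above the other 7 libraries, as for 1.48% of all genes, and metastasis 5 is the highest. This pattern was known when the 6 were chosen.

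Plus-strand tRNAs had a smaller median log2 change. mt-Tl1, the leucine tRNA directly after mt-Rnr2, measured 5.02, 13.9 and 4.85 CPM in the primary lines, 13.9, 13.5 and 3.66 in the CTC lines, 17.1, 21.1 and 15.8 in the metastasis lines and 8.58 in the parental line. Its log2 change of metastasis against primary was 1.18 ± 0.58 (SE, edgeR adjusted p = 0.594). Over the 4 plus-strand tRNAs with at least 10 counts in every library, mt-Tl1, mt-Tr, mt-Th and mt-Ts2, the median log2 change was 0.93, beside 2.20 for the 6 on the minus strand. The 4 neighbouring minus-strand tRNAs, at 2.18 to 2.24, set the latter median. The other minus-strand tRNAs, mt-Tp at 1.42 and mt-Te at 1.18, lay near mt-Tl1 at 1.18 and mt-Tr at 1.25. mt-Th at 0.65 and mt-Ts2 at 0.68 were lower. This contrast between the strands was not tested, and it moved with metastasis 5. In summed CPM the metastasis mean was 2.12 times the primary mean for all plus-strand tRNAs and 2.91 times for all minus-strand tRNAs, and without metastasis 5 these ratios were 2.15 and 2.22. Over these 10 tRNAs, every metastasis line was above all 7 other libraries for 8, the exceptions being mt-Th and mt-Ts2, where 1.48% of all genes showed this pattern. Of the other 12 tRNAs, 7 passed the filter only through some of the libraries (mt-Tf, mt-Tv, mt-Tm, mt-Td, mt-Tk, mt-Tg and mt-Tt, with 0 to 66 counts) and give no comparison here. The remaining 5 did not pass: mt-Tw, mt-Ts1 and mt-Tl2 held exactly 1 count in each library, and mt-Ti and mt-Tq held 0 or 1.

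mt-Nd6 was near the limit of detection in some libraries. Its counts were 2, 10 and 2 in primary lines 5, 7 and 8, 109, 38 and 1 in CTC lines 1, 3 and 6, 96, 92 and 139 in metastasis lines 5, 3 and 7, and 10 in the parental line. The metastasis lines and 2 of 3 CTC lines were far above the primary lines, and CTC 6 was the lowest library. edgeR gave an adjusted p of 0.594 for metastasis against primary and DESeq2 0.0220, and a fold is not given because 1 or 2 counts stand in 3 libraries. Its region overlaps with mt-Nd5 on the opposite strand by 14 bases.

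Against the CTC lines, the metastasis lines had higher means for 14 of the 15 mRNA and rRNA members, with a median log2 change of 0.55 beside 0.00 over all genes, of which 49.8% were above 0. edgeR called 0 members (adjusted p = 1 for each), where it called 0.00502% of all genes. limma-voom (0.00502% of all genes) and DESeq2 (0.145%) also called 0. At an unadjusted p under 0.05 stood 9 members, against 3.29% of all genes in either direction and 1.6% in this one: the 6 minus-strand tRNAs and mt-Atp6, mt-Nd5 and mt-Nd4. Every metastasis line was above every CTC line for 5 of the 15, mt-Co2, mt-Atp6, mt-Nd4l, mt-Nd4 and mt-Nd5, and for 8 of the 10 tRNAs, where 4.43% of all genes showed this. mt-Atp6 had a log2 change of 1.24 ± 0.29 and mt-Ty of 1.71 ± 0.48 (SE, edgeR adjusted p = 1 for both). The value of mt-Atp6 leaves out Gm10925, which held 8.76 to 21.6 counts for each of its counts. Counted as 1 RNA, mt-Atp8 with mt-Atp6 overlapped between these groups, at 2719 CPM in CTC 1 and 2287 in metastasis 3. Without metastasis 5 the count at an unadjusted p under 0.05 was 2, and with the copies' counts added to their member it was 7. With the line number as a fixed block, which leaves 1 residual degree of freedom, it was 0. With the line number as a random block in limma-voom it was 10. For metastasis against CTC the fixed block rests on metastasis 3 and CTC 3, the only lines of these groups that share a number. In the comparison with the primary lines the count was 19 of the 25 members described in full, against 8.29% of all genes in either direction and 3.37% in this one. With the low-count tRNAs included it was 20 of 32. On that base it was 13 of 30 with the line number as a fixed block and 23 of 30 with it as a random block. It was 10 of 31 without metastasis 5 and 11 of 32 without primary 8. The share of all genes at this threshold was not counted in the alternative fits.

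For the CTC lines against the primary lines, a comparison that shares its groups with the 2 above, the log2 changes were smaller. Of the 15 mRNA and rRNA members 14 had higher means in the CTC lines, with a median log2 change of 0.34 and -0.01 over all genes, of which 49.1% were above 0. edgeR called 0 members (adjusted p from 0.994 to 0.998), where 0% of all genes were called, and 2 had an unadjusted p under 0.05, mt-Nd3 and mt-Nd6, both higher, against 4.06% of all genes in either direction and 1.51% in this one. limma-voom (0% of all genes) and DESeq2 (0.347%) also called 0. Every CTC line was above every primary line for mt-Nd3 (log2 change 0.71 ± 0.28), mt-Ta, mt-Tc and mt-Ty, where 3.13% of all genes showed this. CTC 6 was the lowest of the 10 libraries for 9 of 13 protein-coding members, and neither CTC 1 nor CTC 3 was the lowest for any.

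Over all 3 derived groups, edgeR called 0 members for any difference, where 0% of all genes were called, and limma-voom also called 0. At an unadjusted p under 0.05 were 14 of the 25 members described above, against 5.2% of all genes. DESeq2 called mt-Tp, mt-Tc, mt-Ta, mt-Tn, mt-Ty and mt-Atp6, where it called 0.638% of genes. For the metastasis lines against the mean of the primary and CTC lines, edgeR called 0 members, where 0.00502% of all genes were called, and 16 of the 25 had an unadjusted p under 0.05, against 6.31% of all genes in either direction and 3.13% in this one. DESeq2 called the same 6 members as for any difference, where it called 0.434% of genes, and limma-voom called 0, where it called 0.00502% of all genes.

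Against the single parental library, the derived lines together had values on both sides of 0. Of the mRNA and rRNA members, 12 of the 15 were higher in the derived lines, with a median log2 change of 0.19 beside 0.10 over all genes (53.9% above 0), a shift that was 0.18 without TMM scaling. The 7 complex I members were all above 0 (median 0.39), while mt-Co1 was -0.25 ± 0.33 and mt-Atp6 -0.18 ± 0.36. edgeR called 0 members, where 0.0201% of all genes were called. limma-voom (0.115% of all genes) and DESeq2 (4.2%, with an adjusted p for 28 of the 32 members) also called 0. mt-Tc alone had an unadjusted p under 0.05, with 1.78 ± 0.76 (SE, edgeR adjusted p = 0.482), against 10.3% of all genes in either direction and 5.87% in this one. The parental group is 1 library, whose spread is assumed to equal that of the derived groups.

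Nuclear genes that copy and express mitochondrial DNA had medians near or below 0. Over 7 lists (replication, transcription, processing, stability, modification, translation and tRNA charging) all 81 genes were tested. For metastasis against primary edgeR called 0 of them, where 0% of all genes were called. Of the 81, 26 were higher and 55 lower, beside 50.3% of all genes above 0, and the median log2 change was -0.15. An unadjusted p under 0.05 was seen for 3 of the 81, against 8.29% of all genes. Median changes were 0.13 over 9 transcription genes and -0.58 over 7 stability genes, and lay from -0.22 to -0.11 in the other lists. Polrmt, the mitochondrial RNA polymerase, measured 48.3 ± 8.08 CPM in the primary and 48.0 ± 14.1 in the metastasis lines (SD, n = 3). Tfam, which packages mitochondrial DNA and starts its transcription, measured 59.6 ± 6.77 and 65.1 ± 12.7 CPM. Tfb2m, the second initiation factor, measured 34.5 ± 5.18 and 40.1 ± 10.9 CPM. In these 3 the primary and metastasis lines overlapped.

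Among replication genes the helicase Twnk measured 51.7 ± 16.5 CPM in the primary and 55.7 ± 16.9 in the metastasis lines, and the polymerase Polg 77.1 ± 18.4 and 63.9 ± 24.7. Lrpprc, which with Slirp protects mitochondrial mRNAs, measured 205, 227 and 422 CPM in primary lines 5, 7 and 8 and 145, 140.1 and 167 in metastasis lines 5, 3 and 7. Every metastasis line was below every primary line, as for 7.27% of all genes, with a log2 change of -0.92 ± 0.36 (SE, edgeR adjusted p = 0.594). Slirp measured 35.7 ± 14.6 and 31.1 ± 14.7 CPM. Other genes were named for having the smallest p of their list in any of the 3 comparisons between derived groups, not always in this one, and their values here are again for metastasis against primary. Rexo2, a mitochondrial oligoribonuclease, had a log2 change of -0.84, Exog -0.69, the elongation factors Tsfm -0.77 and Gfm1 -0.61, and the asparagine tRNA synthetase Nars2 -0.81. Nsun3, which modifies a mitochondrial tRNA, had 0.78, the rRNA methyltransferase Mrm2 1.25, Mterf2 0.63, Mterf3 -0.15, Polg2 0.06, Fastk 0.47 and Fastkd5 -0.45. None of these was called by edgeR. Lars2, the leucine tRNA synthetase, stood apart from all of these in level, at 615 to 3760 CPM, with a log2 change of -0.56.

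Nuclear subunits of the same complexes had medians on the other side of 0 from the mitochondrial ones. For metastasis against primary, 8 of 36 nuclear complex I genes were higher and 28 lower (median log2 change -0.24). For complex III it was 3 and 6 (-0.26), for complex IV 1 and 9 (-0.36), and for the ATP synthase 1 and 14 (-0.21). Mitochondrial ribosomal proteins were higher in 12 and lower in 66 of 78 (median -0.42). Complex II, which has no mitochondrially encoded subunit, had 1 gene higher and 3 lower (-0.11). edgeR called 0 genes of these lists, and over all genes the median was 0.01.

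Other features differed between the same groups. The 22 cell cycle genes were all lower in the metastasis than in the primary lines (median log2 change -1.18, 0 called by edgeR), and their summed level was 868 to 3270 CPM in the metastasis, 3557 to 5533 in the primary, 2473 to 4852 in the CTC lines and 2708 in the parental line. RNAs that lack a poly(A) tail, mostly histone RNAs, had 63 of 74 genes tested. Of these 6 were higher and 57 lower (median -1.53, 0 called by edgeR), with summed levels of 51.9 to 122 CPM in the metastasis, 78.9 to 161 in the primary, 155 to 236 in the CTC lines and 81.3 in the parental line, and 2 genes at 0 in all libraries. Of 5 nuclear long non-coding RNAs 4 were tested, of which 3 were higher and 1 lower in the metastasis than in the primary lines (median 0.55, 0 called by edgeR). They summed to 337 to 759 CPM in the metastasis, 220 to 490 in the primary, 303 to 411 in the CTC lines and 263 in the parental line. Metastasis 5 was the highest library for this sum, as for 12 of the 13 protein-coding members. Of the 6 carcinoma markers 1 was higher and 5 were lower in the metastasis than in the primary lines (median -1.52, 0 called by edgeR). They summed to 1188 to 2915 CPM in the metastasis, 2063 to 3397 in the primary, 1481 to 2684 in the CTC lines and 1241 in the parental line. Krt18 was at 303 CPM or more in every library, while the lowest library had 54.7 CPM of Krt8, 15.7 of Epcam and 5.92 of Cldn3. The part of any of these lists in the members' differences was not tested. Markers of host cells were near 0: blood 0.0273 to 1.08 CPM over 6 genes with Cd3e at 0, lung epithelium 0.717 to 4.80 over 6 genes with Sftpc at 0, endothelium 0.198 to 1.31 over 4 genes, and muscle and fat 0.133 to 4.66 over 7 genes with Myh4 at 0. The 5 fibroblast markers summed to 4.88 to 61.8 CPM in the primary, 10.9 to 142 in the CTC and 13.6 to 284 in the metastasis lines, of which Pdgfra reached 269, Dcn 12.4, Col1a1 2.32, Col3a1 0.325 and Lum 0.0524. All 4 fibroblast markers tested were higher in the metastasis than in the primary lines (median log2 change 2.71, 0 called by edgeR), and their part in the members' differences was not tested. In bulk libraries, fewer cells of a type and less RNA per cell cannot be told apart.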

How the data were processed

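RNA-seq libraries of 10 lines were aligned with HISAT2 2.1.0 to GRCm38 and assembled with StringTie 2.0.3, per the submitters' processing notes, which also name DESeq2 1.26.0. The deposited gene and transcript tables hold estimated counts, whole numbers derived by the authors from StringTie's coverage; annotation release, strand use and the handling of reads with several matches are not given in the sources used here. No column of per-sample values was left unused (0). Totals were 79869760 to 97722716 counts per library, of which 19.7% to 22.8% fell on 17127 assembled entries without a gene name, which were left out of the fits. A member with few counts is limited by counting error.

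From the counts, edgeR 4.0.16 (R 4.3.3) fitted all named genes in 1 quasi-likelihood model of 4 groups over 10 libraries, after filterByExpr (19935 genes kept) and TMM scaling, with Benjamini-Hochberg adjustment over all genes tested at 0.05 (common biological coefficient of variation 0.606). Each line is 1 library, so p-values measure the spread between lines. Nuclear copies were found with blastn 2.17.0. Alternatives were other scalings and filters, limma-voom 3.58.1, DESeq2 1.42.0, all entries, each line left out, and a block on the line number. Adding the copies' counts to their member was chosen after seeing the data. Lines with the same number deviated together from their group means. The correlation was 0.316 for primary 5 and metastasis 5, 0.121 for primary 7 and metastasis 7, and 0.406 for CTC 3 and metastasis 3. The median was -0.0482 for pairs of different number in different groups. Lines with different numbers also deviated together, at 0.505 for CTC 6 and metastasis 7 and 0.431 for primary 8 and CTC 6. Both were above every same-number pair, so the pairing is no more than a hint from the data. The random block in limma-voom estimated a correlation of 0.531 between lines of the same number. The main fit leaves the line number out.

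All mRNA and rRNA members were named, and tRNAs with 10 counts in at least 3 libraries or past the filter. From each of the 7 lists of nuclear genes, genes called or else the 2 with the smallest p were named, with 7 core genes in addition. The members and lists were chosen with earlier results of these data known.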

Additional observations from a re-analysis of the deposited data

How the results depend on the processing

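In all 6 comparisons edgeR called 0 members under every scaling, filter, choice of entries and samples, left-out line and replicate block that was run, and limma-voom called 0. The replicate block on the line number, run on the derived lines only, called 0 members whether fixed or random. As a fixed term it leaves 1 residual degree of freedom. The parental library, whose title gives no line number, was left out of it. DESeq2 called 6 members for metastasis against primary, 6 for metastasis against the mean of primary and CTC, and 6 for any difference. The log2 changes of the 15 mRNA and rRNA members reversed in 0 of 330 alternative fits against primary. Only mt-Nd6 crossed the threshold, called by DESeq2 (adjusted p = 0.0220). Outside DESeq2 at most 2 genes of any kind were called in these fits, so staying on 1 side of the threshold shows little. The fits share libraries, and the members share precursors. Against primary the median log2 change over the 15 mRNA and rRNA members was 0.83. With all tRNAs that passed included, those with few counts too, it was 0.95 over 32 members. With the fixed block on the derived lines it was 0.86 over 30 members, so these 2 medians do not cover the same members. Against CTC the medians over the same 32 and 30 members were 0.81 and 0.30. The fixed block there rests on metastasis 3 and CTC 3, the only lines of these groups that share a number. The sign was kept in 327 of 330 fits of the 15 mRNA and rRNA members. There, leaving out 1 line gave -0.48 to 0.072 for mt-Rnr1 (-0.19 with all lines), above 0 without CTC 1 (0.072) and without metastasis 7 (0.035), and -0.076 to 0.41 for mt-Rnr2 (0.16 with all lines), below 0 without CTC 6 (-0.076). The cause was not tested. The mitochondrial share moved by construction: of all counts it was 1.18% in the primary and 2.11% in the metastasis lines, and with the nuclear copies 1.95% and 3.48%. The 12S rRNA alone took 1.19% of mitochondrial counts in the primary, 1.72% in the CTC and 1.02% in the metastasis lines, and the 16S rRNA alone 2.22%, 2.72% and 2.13%. Depth limits the 12 tRNAs under 10 counts in some library, and mt-Nd6.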
